A study of Mus musculus with 6 samples.

Results

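The 8 chemokine ligand genes Ccl3, Ccl4, Ccl5, Ccl20, Cxcl2, Cxcl10, Cxcl16 and Xcl1 were followed in RNA from sorted regulatory T (Treg) cells with and without a deletion of Tkt, which encodes the pentose phosphate pathway enzyme transketolase. They were taken by gene symbol from a table of 18493 genes, and all 8 symbols were found. The sorted cells were CD4+CD25+YFP+ cells from the spleen and lymph node of untreated female C57BL/6 mice aged 7 weeks, and the libraries were read on an Illumina instrument. Conditional knockout (cKO) mice were Foxp3cre/+ TKTfl/fl, and wild-type (WT) mice were Foxp3cre/+, so that both groups carry the Cre allele at the Foxp3 locus and only cKO mice carry the floxed Tkt alleles. The design calls the mice of both groups chimeric and gives 3 per group. Foxp3 lies on the X chromosome, so a female with the Cre on 1 copy is a mosaic, and the sort on YFP takes cells in which that copy is active; the same mice keep Treg cells without Cre. Whether each library comes from 1 mouse is not stated, and the p-values reflect only how far these 6 libraries scatter, which may be technical.

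Chemokines are small secreted proteins that guide leukocytes along concentration gradients by binding G protein-coupled receptors. T cells make several of them after activation, CCL3, CCL4, CCL5 and XCL1 among them, and Treg cells have been described to draw other lymphocytes close to them in this way. CXCL2 and CXCL10 are better known as products of myeloid and stromal cells under NF-kappaB and interferon signals. In the bulk RNA of a sort, less RNA per cell cannot be told apart from fewer cells of a type that makes it.

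The promoters are shown for the 2 ligands with the largest differences, Cxcl2 and Cxcl10, beside Ccl20 and Ccl3. Each sequence is the run of 250 bases directly upstream of the annotated start in RefSeq GRCm38.p6 (the build mm10), on the strand of the gene. Capitals mark matches to 3 motifs searched on both strands: the kappaB consensus bound by NF-kappaB, the interferon-stimulated response element (a pair of GAAA runs with any 2 bases between them), and the AP-1 site written as TGANTCA. RefSeq promoters were matched by symbol for 5 of the 8 ligands, and Ccl4, Ccl5 and Cxcl16 were not among them. The regions are chr5:90903649-90903898 on the plus strand (Cxcl2), chr5:92348890-92349139 on the minus strand (Cxcl10), chr1:83116516-83116765 on the plus strand (Ccl20) and chr11:83649379-83649628 on the minus strand (Ccl3).
Cxcl2: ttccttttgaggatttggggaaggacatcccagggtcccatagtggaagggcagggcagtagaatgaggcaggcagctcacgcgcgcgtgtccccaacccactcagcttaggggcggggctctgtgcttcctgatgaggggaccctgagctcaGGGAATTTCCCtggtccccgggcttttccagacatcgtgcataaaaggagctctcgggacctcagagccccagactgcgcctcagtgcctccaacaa
Cxcl10: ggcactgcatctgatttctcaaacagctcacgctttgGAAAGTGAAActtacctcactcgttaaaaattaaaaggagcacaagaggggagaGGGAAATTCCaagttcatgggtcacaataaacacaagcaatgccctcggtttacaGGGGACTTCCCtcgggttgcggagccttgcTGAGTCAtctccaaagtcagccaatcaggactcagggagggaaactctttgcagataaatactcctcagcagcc
Ccl20: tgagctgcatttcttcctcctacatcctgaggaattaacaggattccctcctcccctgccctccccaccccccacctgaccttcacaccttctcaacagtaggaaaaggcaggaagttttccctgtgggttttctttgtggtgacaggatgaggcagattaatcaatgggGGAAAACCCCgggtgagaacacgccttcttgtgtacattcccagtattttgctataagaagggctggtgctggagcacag
Ccl3: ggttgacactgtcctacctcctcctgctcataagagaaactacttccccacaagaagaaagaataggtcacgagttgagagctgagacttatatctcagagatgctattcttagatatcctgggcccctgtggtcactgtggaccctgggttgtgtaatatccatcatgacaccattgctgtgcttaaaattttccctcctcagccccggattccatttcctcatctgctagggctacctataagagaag
The Cxcl2 promoter holds overlapping kappaB matches on the plus and minus strands between 97 and 87 bases upstream of the start. The Cxcl10 promoter holds kappaB matches at 159 to 150 and at 104 to 94 bases upstream, the second a set of overlapping matches on both strands. It also holds an interferon-stimulated response element at 213 to 204 bases and an AP-1 match at 74 to 68 bases upstream. The Ccl20 promoter has a kappaB match on the minus strand at 80 to 71 bases, and none of the 3 motifs was found in the windows of Ccl3 and Xcl1. Among 32817 RefSeq promoters of the same length, 7.25% held a kappaB match, 2.97% the interferon-stimulated response element and 6.75% the AP-1 match. A match is a run of letters, not a measured site.

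The libraries were of like depth, with 17709728, 18215168 and 17647866 estimated reads in cKO1, cKO2 and cKO3, and 17715571, 17180577 and 17584289 in WT1, WT2 and WT3. Tkt stood at 31.9 to 52.5 CPM (counts scaled to library size) in cKO and 97.1 to 126 CPM in WT libraries, with a log2 fold change of -1.41 ± 0.19 (SE; edgeR adjusted p = 0.0516), so the direction matched the labels while the gene missed the threshold of 0.05. The floxed exons are not named in the labels, and the value sums reads over all exons. Treg markers were abundant in every library, as Foxp3 stood at 559 to 676 CPM in cKO and 458 to 686 CPM in WT. The 10 Treg markers summed to 5134, 5005 and 4919 CPM in cKO1 to cKO3 and to 5742, 5782 and 5538 CPM in WT1 to WT3, without overlap, and 7 of the 10 had a negative log2 fold change (median -0.16). None was called, and Nrp1, a surface receptor of Treg cells, had the lowest p (log2 fold change -0.31, edgeR adjusted p = 0.321). In edgeR's test 3 were lower at an unadjusted p under 0.05, against 5.01% of all genes. All cKO libraries lay below all WT libraries for 3 markers, against 8.12% of all genes. The sum weighs abundant markers most, and log2 fold changes were -0.57 for Ctla4, -0.11 for Cd4 and 0.05 for Foxp3. The part of the marker difference in the ligand values was not tested. On a first principal component with 36.1% of the variance, cKO1 and WT2 lay at one end (-33.2 and -25.4), cKO2 between (-8.11) and the other libraries from 18.4 to 25.9. Values of Cxcl2 and Cxcl10 are also given without both cKO1 and WT2.

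All 8 ligands were low-abundance transcripts. Per length, the mean over the 6 libraries was highest for Cxcl10 at 8.63 FPKM (fragments scaled to transcript length and library size) and for Ccl5 at 7.87 FPKM. Ccl20 followed at 2.46, Xcl1 at 2.04, Cxcl2 at 1.73, Ccl3 at 1.42, Ccl4 at 0.758 and Cxcl16 at 0.290 FPKM. The only neighbours in this order whose library ranges did not overlap were Ccl5 and Ccl20, where the lowest Ccl5 value was 3.93 FPKM and the highest Ccl20 value 3.74 FPKM. The ranges of the other neighbours overlapped, although Ccl3 was above Ccl4 within each of the 6 libraries. The order by group mean was not the same in both genotypes: Ccl5 came first in cKO and Cxcl10 in WT, and Cxcl2 took place 6 in cKO and place 4 in WT.

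**Figure D1:**
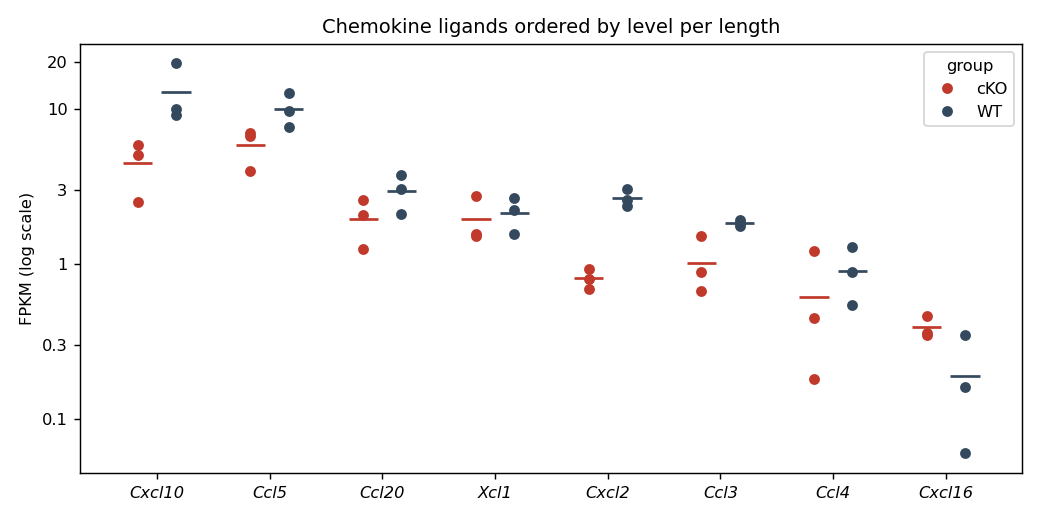
FPKM of each ligand (log scale) with a point for each of the 3 cKO (left, red) and 3 WT (right, dark) libraries and a line at each group mean, ordered by the mean over all 6 libraries. Cxcl10 and Ccl5 have the highest means, but in cKO3 Cxcl10 (2.51 FPKM) lay below Ccl20 (2.56 FPKM) and Xcl1 (2.75 FPKM). The groups are separate for Cxcl2, Cxcl10, Ccl5 and Ccl3.

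Of the 8 ligands, 7 had enough reads to be tested and Ccl4 did not. None of the 7 was called at an adjusted p under 0.05 by edgeR's quasi-likelihood test over 12887 genes, where 0.21% of all genes were called, 0.202% lower and 0.00776% higher in cKO cells. At an unadjusted p under 0.05 there were 4 of 7, all lower in cKO, against 5.01% of all genes in that direction and 2.68% in the other. DESeq2 called 2 of 7, Cxcl2 and Cxcl10, both lower in cKO, where it called 1.2% of all genes lower. In Cxcl2, Cxcl10, Ccl5 and Ccl3 all cKO libraries were lower than all WT libraries, which held for 8.12% of all tested genes, while the reverse held for none of the 7 ligands and 6.1% of all genes. The median log2 fold change of the 7 was -0.75, with 6 negative, beside a median of 0.00 over all tested genes.

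Cxcl2 and Cxcl10, chemokines of the CXC class, had the largest differences of the set. CXCL2 attracts neutrophils through the receptor CXCR2. Cxcl2 stood at 0.872, 0.981 and 0.724 CPM in cKO1 to cKO3, against 3.16, 2.57 and 2.70 CPM in WT1 to WT3. These values rest on 15, 18 and 13 reads in the cKO libraries and on 57, 43 and 48 reads in the WT libraries. The 3 cKO libraries were close to each other, and all lay well below the WT libraries. The SD of the cKO libraries was 2.52 reads where counting error alone gives 3.92, so their closeness is not a measure of the spread between mice. The means were 0.859 ± 0.129 CPM in cKO and 2.81 ± 0.310 CPM in WT (SD, n = 3 each), a fitted difference of 3.25-fold lower in cKO. The log2 fold change was -1.70 ± 0.25 (SE), with a 95% interval of -2.30 to -1.11 and an adjusted p of 0.0591 in edgeR's test, place 50 by p among all genes. Among the ligands Cxcl2 was the one nearest to the threshold. DESeq2 gave an adjusted p of 0.00348, and over 18 alternatives the adjusted p lay between that value and 0.322, with 2 calls. Without cKO1 and WT2 the log2 fold change was -1.77 ± 0.33 (edgeR adjusted p = 0.13). The gene lies on chromosome 5 at 90903899 to 90905938.

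CXCL10 is induced by interferon and binds CXCR3, a receptor of effector and type 1 T cells. Cxcl10 stood at 5.58, 6.21 and 2.67 CPM in cKO1 to cKO3, against 10.5, 21.7 and 9.74 CPM in WT1 to WT3, from 96, 114 and 48 reads and from 190, 363 and 173 reads. The groups did not overlap, but WT2 lay far above the other WT libraries and cKO3 lay far below the other cKO libraries. The means were 4.82 ± 1.89 CPM in cKO and 13.99 ± 6.69 CPM in WT (SD, n = 3 each). The fitted value was 2.90-fold lower in cKO, with a log2 fold change of -1.53 ± 0.41 (SE; 95% interval -2.49 to -0.57; edgeR adjusted p = 0.313). DESeq2 called it (adjusted p = 0.0104), and the range over 18 alternatives was 0.0104 to 0.608. Without WT2 the log2 fold change was -1.07 ± 0.34 (adjusted p = 0.362), and without both cKO1 and WT2 it was -1.19 ± 0.37 (adjusted p = 0.325), so the difference was smaller when WT2 was left out. The gene lies on chromosome 5 at 92346638 to 92348889, and 133 of its exonic bases (5.91%) are shared with Art3 on the opposite strand. Art3 stood at 0.930, 1.14 and 0.724 CPM in cKO and 2.05, 1.85 and 1.91 CPM in WT (adjusted p = 0.304). The sources used here do not say whether reads were counted by strand, so reads in the shared bases cannot be assigned with certainty, although Art3 had fewer reads than Cxcl10 in every library.

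**Figure D2:**
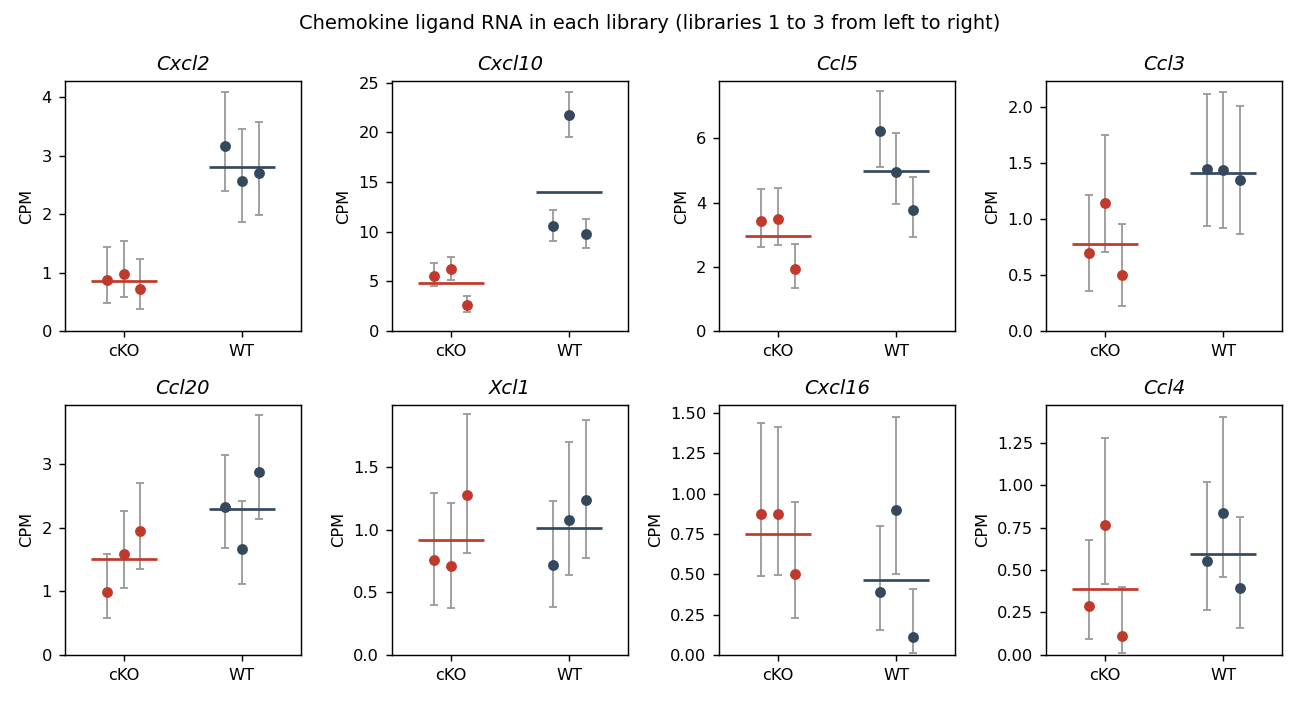
CPM of each ligand in each library, with 3 cKO libraries (left, red) and 3 WT libraries (right, dark) a panel, a line at the group mean and grey bars for the 95% exact Poisson interval, which covers counting error only. The cKO points lie below all WT points for Cxcl2, Cxcl10, Ccl5 and Ccl3, and the groups overlap for Ccl20, Xcl1, Cxcl16 and Ccl4.

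Ccl3, Ccl4 and Ccl5, inflammatory chemokines of the CC class, had lower means in cKO, and none was called. They attract T cells, monocytes and NK cells, and lie near each other on chromosome 11. Ccl5 (83525778 to 83530518) stood at 3.43, 3.49 and 1.95 CPM in cKO1 to cKO3, against 6.21, 4.96 and 3.77 CPM in WT1 to WT3, from 59, 64 and 35 reads and from 112, 83 and 67 reads. The groups did not overlap, but the highest cKO library and the lowest WT library, WT3, were close. The means were 2.96 ± 0.873 CPM in cKO and 4.98 ± 1.22 CPM in WT (SD, n = 3 each), with a log2 fold change of -0.75 ± 0.30 (SE; 95% interval -1.45 to -0.06; unadjusted p = 0.0378, edgeR adjusted p = 0.597). CCL5 is also a typical product of cytotoxic lymphocytes. The 14 markers of CD8 T and NK cells summed to 39.5, 51.2 and 42.1 CPM in cKO and 45.9, 42.5 and 45.6 CPM in WT, ranges that overlap. None of the 7 tested was called. Of these, 5 had a positive and 2 a negative log2 fold change, with a median of 0.30. Ncr1, which defines NK cells, was at 0 in 5 of 6 libraries, with 2 reads in cKO1, and Gzma stood at 0.349 CPM or less. Both are low members of a list that summed to at least 39.5 CPM, and they do not give its level. Nkg7, a cytotoxic granule protein, had the lowest p of the list (log2 fold change -0.66, edgeR adjusted p = 0.304). It stood at 9.83, 14.1 and 11.2 CPM in cKO1 to cKO3 and 21.4, 15.5 and 18.6 CPM in WT1 to WT3. Its direction was that of Ccl5, while 5 of the 7 went the other way. Of the 7, only Nkg7 had all cKO libraries below all WT libraries, which held for 8.12% of all tested genes. The part of CD8 T and NK cells in the Ccl5 value was not tested.

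Ccl3 (83647843 to 83649378) stood at 0.698, 1.14 and 0.501 CPM in cKO1 to cKO3, against 1.44, 1.44 and 1.35 CPM in WT1 to WT3, from 12, 21 and 9 reads and from 26, 24 and 24 reads. The WT libraries were almost level with each other, closer than counting error alone would make them (SD of 1.15 reads, against 4.97 from counting error). Their small SD is therefore not a measure of the spread between mice. cKO2 was the cKO library nearest to the WT libraries. The means were 0.781 ± 0.330 CPM in cKO and 1.41 ± 0.0503 CPM in WT (SD, n = 3 each). The log2 fold change was -0.84 ± 0.36 (SE; 95% interval -1.68 to -0.0068; unadjusted p = 0.0486, edgeR adjusted p = 0.643), and its size ranged from -1.23 without cKO2 to -0.51 on the log2(FPKM + 1) scale. Ccl4, whose gene span overlaps that of Ccl3 in RefSeq, had 5, 14 and 2 reads in the cKO libraries and 10, 14 and 7 reads in the WT libraries. That is 0.291, 0.763 and 0.111 CPM in cKO and 0.555, 0.837 and 0.394 CPM in WT, so the groups overlapped widely. Ccl4 did not pass the filter on low counts. With no filter its log2 fold change was -0.59 ± 0.68 (SE; edgeR adjusted p = 0.886), and a difference was not detectable at this depth. Across Ccl3, Ccl4 and Ccl5, cKO3 was the lowest of all 6 libraries each time.

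Ccl20, Xcl1 and Cxcl16 overlapped between the groups and missed the threshold also without adjustment. CCL20 binds CCR6, a receptor of Th17 cells, B cells and a subset of Treg cells. Ccl20 (chromosome 1, 83116766 to 83119167) stood at 0.988, 1.58 and 1.95 CPM in cKO1 to cKO3, against 2.33, 1.67 and 2.87 CPM in WT1 to WT3, from 17, 29 and 35 reads and from 42, 28 and 51 reads. cKO3, the highest of its group, lay above WT2, the lowest of the WT libraries. The log2 fold change was -0.60 ± 0.34 (SE; 95% interval -1.40 to 0.19; edgeR adjusted p = 0.785).

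XCL1 draws cross-presenting dendritic cells through XCR1. Xcl1 (chromosome 1, 164931644 to 164935522) stood at 0.756, 0.709 and 1.28 CPM in cKO1 to cKO3, against 0.721, 1.08 and 1.24 CPM in WT1 to WT3. Each value rests on 13 to 23 reads. The groups covered almost the same range, with means of 0.915 ± 0.318 CPM in cKO and 1.01 ± 0.265 CPM in WT (SD, n = 3 each). The log2 fold change was -0.14 ± 0.37 (SE; 95% interval -1.02 to 0.73; edgeR adjusted p = 0.983), so the interval takes in changes in either direction. Its sign turned without cKO2, without WT3 and without both cKO1 and WT2.

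Cxcl16, which encodes a membrane-anchored ligand of CXCR6 made by antigen-presenting cells, was the only tested ligand with a higher mean in cKO. Cxcl16 (chromosome 11, 70454389 to 70459984) stood at 0.872, 0.872 and 0.501 CPM in cKO1 to cKO3, against 0.388, 0.897 and 0.113 CPM in WT1 to WT3, from 15, 16 and 9 reads and from 7, 15 and 2 reads. WT2 was as high as the highest cKO libraries, and WT3 was close to no reads. The log2 fold change was 0.69 ± 0.64 (SE; 95% interval -0.81 to 2.19; edgeR adjusted p = 0.908), and it ranged from 0.23 without WT3 to 1.55 without WT2 (adjusted p = 0.981 and 0.481). The 19 myeloid markers summed to 120, 168 and 80.2 CPM in cKO1 to cKO3 and to 74.8, 118 and 76.9 CPM in WT1 to WT3. The 3 libraries with the highest sums, cKO1, cKO2 and WT2, are also the 3 with the most Cxcl16. Lyz2, a lysozyme of macrophages and neutrophils, stood at 31.3, 41.2 and 19.6 CPM in cKO and 15.5, 32.8 and 15.3 CPM in WT (log2 fold change 0.54, adjusted p = 0.84). Csf1r, the receptor of a macrophage growth factor, had the lowest p of the list and stood at 9.07, 21.97 and 2.40 CPM in cKO and 1.66, 4.25 and 1.46 CPM in WT (log2 fold change 2.19, adjusted p = 0.527). All 15 tested myeloid markers had a positive log2 fold change and none was called (median 0.54). The part of myeloid cells in the Cxcl16 values, and in those of the other ligands, was not tested. The exons of Cxcl16 share 552 bases (18.3%) with Zmynd15 on the opposite strand, which had 1 to 5 reads a library, so counts that disregard strand could not be assigned with certainty there either.

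**Figure D3:**
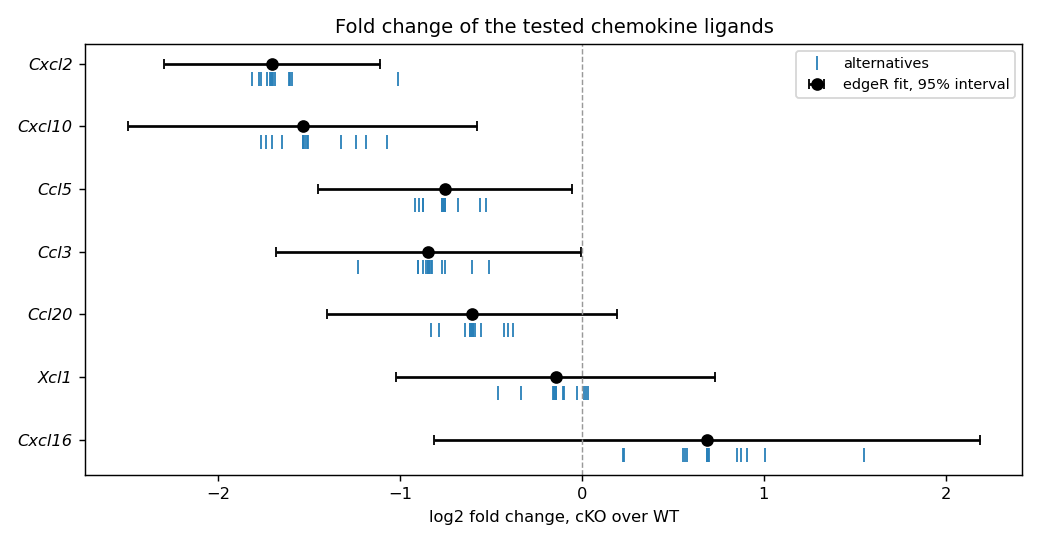
Log2 fold change of each tested ligand, cKO over WT, as a point with its 95% interval from edgeR's quasi-likelihood fit, and blue ticks for the alternative settings. The intervals of Cxcl2, Cxcl10, Ccl5 and Ccl3 lie below 0 before adjustment, and the ticks of Xcl1 fall on both sides of 0.

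The summed level of the 8 ligands was lower in every cKO library than in every WT library. The sums were 17, 20.3 and 13.6 FPKM in cKO1 to cKO3, against 33.0, 39.2 and 27.96 FPKM in WT1 to WT3. Cxcl10 made up 29.5%, 28.5% and 18.4% of the sum in cKO and 30.0%, 49.8% and 32.5% in WT, so it weighed most in WT2. Without Cxcl10 the sums were 12.0, 14.5 and 11.1 FPKM in cKO and 23.1, 19.7 and 18.9 FPKM in WT, which also did not overlap. In cKO3, Xcl1 and Ccl20 held 20.2% and 18.8% of the sum, the largest shares that either reached in any library. The sum has no test, since the ligands were chosen with values of these data known.

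**Figure D4:**
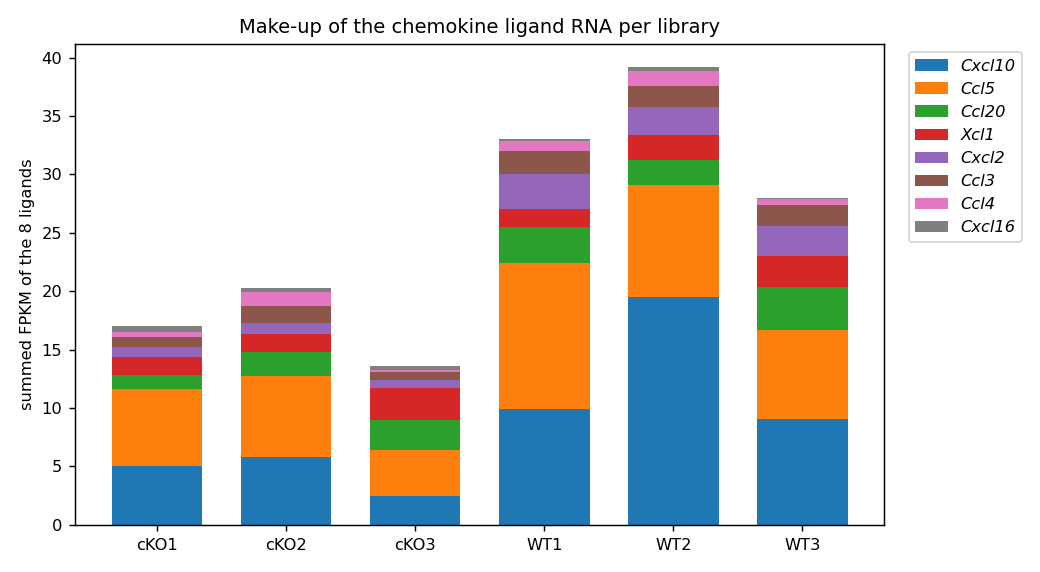
Summed FPKM of the 8 ligands in each library, cKO libraries left of WT libraries, with a colour for each ligand. The cKO bars reach 13.6 to 20.3 FPKM and the WT bars 27.96 to 39.2 FPKM, with Cxcl10 and Ccl5 as the largest pieces except in cKO3, where Cxcl10 is smaller than Xcl1 and Ccl20.

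The receptors of these ligands were also measured in the same cells. The list holds 8 receptors, all tested and none called; 7 of 8 had a negative log2 fold change, and the median was -0.71. Cxcr3, the receptor of CXCL10, stood at 9.71, 16.1 and 14.4 CPM in cKO, against 40.2, 32.6 and 31.1 CPM in WT, and the groups were far apart. Its log2 fold change was -1.37 ± 0.19 (SE; edgeR adjusted p = 0.056). Ccr6 stood at 16.0 to 20.9 CPM in cKO and 20.4 to 27.0 CPM in WT (log2 fold change -0.35, adjusted p = 0.637), and Cxcr2 at 6.00 to 9.52 CPM in cKO and 7.26 to 9.35 CPM in WT (-0.10, adjusted p = 0.974), both with overlap. A list of 31 other chemokine ligands had 24 members in the table and 4 with enough reads to be tested, which were Ccl25, Ccl27a, Ccl28 and Cxcl9. None was called, and the median log2 fold change was 0.06. Cxcl9, like CXCL10 an interferon-induced ligand of CXCR3, stood at 1.22, 1.58 and 0.501 CPM in cKO and 1.11, 0.897 and 0.788 CPM in WT (0.24, adjusted p = 0.97), and the groups overlapped.

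Gene lists for the signals known to act on Cxcl2 and Cxcl10 were set beside them. Of 18 tested NF-kappaB feedback and target genes none was called, 17 were negative and the median log2 fold change was -0.14. Cd83, a surface marker of activation, had the lowest p (-0.85, adjusted p = 0.059) and its groups did not overlap, with 40.8 to 46.7 CPM in cKO and 68.0 to 92.9 CPM in WT. Tnfaip3, a feedback inhibitor of NF-kappaB, stood at 4612, 2332 and 1153 CPM in cKO1 to cKO3 and 2060, 4898 and 2195 CPM in WT1 to WT3. Both Tnfaip3 and Cxcl10 were highest in WT2 and lowest in cKO3. In cKO1, Tnfaip3 was near its WT2 value, while Cxcl10 stood at 5.58 CPM, beside 6.21 CPM in cKO2 and 2.67 CPM in cKO3. A link between the 2 genes was not tested. Of 23 tested interferon-stimulated genes none was called, and the median was 0.06. Oasl1 had the lowest p of these, with a log2 fold change of 0.44 (adjusted p = 0.431). Of 22 tested immediate early genes none was called (median -0.06), with the lowest p for Klf6, a zinc-finger transcription factor (-0.55, adjusted p = 0.233). All cKO libraries lay below all WT libraries for 4 of the 18 NF-kappaB, 4 of the 22 immediate early and 2 of the 23 interferon-stimulated genes, against 8.12% of all genes. The reverse held for 4 interferon-stimulated genes and 0 of the other 2 lists, against 6.1% of all genes. Median log2 fold changes of these 3 lists were nearer to 0 than that of the ligands, and no test compared them. The lists sum to far more CPM than the ligands, and fold changes spread less widely at higher levels, so the medians are not on like terms.

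**Figure D5:**
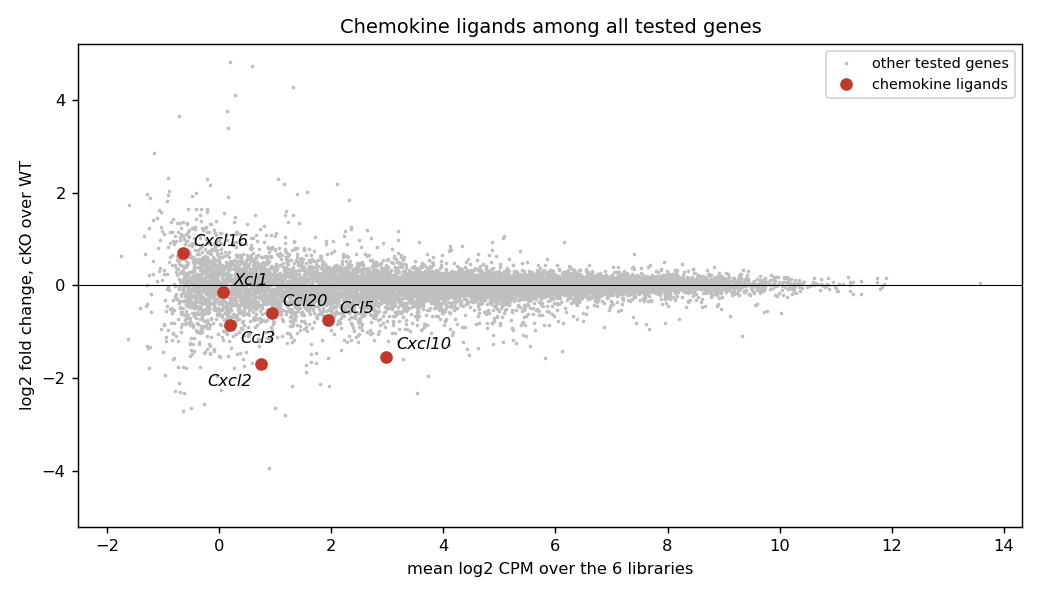
Log2 fold change (cKO over WT) against mean log2 CPM for 12887 tested genes, with the 7 tested ligands in red. All ligands lie at low mean levels, where the spread of the fold changes is wide, and Cxcl2 and Cxcl10 lie near its lower edge.

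The genes with profiles nearest to each ligand over the 6 libraries were listed as a description, by the mean absolute difference of centred log2 CPM values. For Cxcl2 these were Nid2 and Txlnb (0.12 and 0.13), for Cxcl10 Il17rb and Dusp14 (0.13 and 0.23), and for Ccl5 Mlkl and Bag3 (both 0.13). For Ccl3 they were Hgfac and Art3 (0.11 and 0.12), for Ccl20 Smpdl3b and Lrrc8e (0.10 and 0.11), and for Cxcl16 Lair1 and Ly6d (0.16 and 0.20). No ligand was among the nearest genes of another, but only 2 genes were kept for each. Ccl4, Cxcl16 and Xcl1 could not be listed, being untested or under a mean of 1 CPM. The absence is therefore not a result about shared profiles. Il17rb stood at 1.22, 1.14 and 0.501 CPM in cKO and 2.66, 4.19 and 2.31 CPM in WT, with WT2 highest and cKO3 lowest as for Cxcl10. Xcl1 varied by less than 1 log2 unit over the libraries, and no nearest gene was sought for it.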

How the data were processed

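The sample titles gave the group and number of each library. Listed in the submitters' processing notes, without their roles, are the tools DESeq2 1.16.1, featureCounts 1.5.0-p3 and HISAT2 2.0.5, and the build mm10. The authors deposited estimated counts for each gene, not normalized, and the tests use these. In each library 45.4% to 46.3% of them were not whole to within 0.01, and the sources used here do not say where the fractions come from. A further set of columns that the authors deposited behaves like FPKM, scaled to gene length and library size (judged from its values), and served only to order the ligands and sum their levels.

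Estimated counts were rounded to whole numbers, so a ligand with few reads carries a rounding error of up to a part of 1 read. In R 4.3.3, genes passing filterByExpr of edgeR 4.0.16 (minimum count 10) were scaled by TMM and put to edgeR's quasi-likelihood test, two-sided, with group as the only term. Adjustment was by Benjamini-Hochberg across 12887 genes, and genes were called under 0.05. The SE comes from the F statistic, and intervals and Poisson bars use the 95% level. With 3 libraries against 3, the smallest two-sided p of an exact permutation test is 0.1. CPM are after TMM scaling. No pair of libraries of the same group agreed within counting noise. The code was checked on simulated counts.

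The members and gene lists were chosen with earlier results of these data known. Genes beyond the ligands were named by a rule: of each list the gene with the lowest p and at most 3 with the highest mean, the 2 nearest profiles of each ligand that spans at least 1 log2 unit (tested genes with a mean of at least 1 CPM and a gene name, prior count 2), and Tkt and Tnfaip3 as checks. Outside this rule, Ncr1 and Gzma were named as low members of their list, and Zmynd15 as a gene overlapping Cxcl16. Genes that the rule allowed and no result turned on are left out, and some genes of the lists are not reported here. Coordinates are those of RefSeq GRCm38.p6, counted from 1. Alternatives were DESeq2 1.42.0, limma-voom and limma on FPKM (limma 3.58.1), other scalings and filters, robust and newer variance fits, a replicate block, and each library left out. B cell markers summed to 41.5, 24.5 and 19.0 CPM in cKO and 24.3, 23.2 and 25.4 CPM in WT. Stromal, endothelial, platelet and erythroid markers summed to 155, 20.8 and 26.6 CPM in cKO and 5.55, 26.5 and 9.63 CPM in WT. Of 7 tested B cell markers, 5 had a positive and 2 a negative log2 fold change (median 0.92). All 6 tested markers of the other list were positive (median 1.16), and none of either list was called. The lowest p-values in these lists were those of Bank1 and Hbb-bs (edgeR adjusted p = 0.336 and 0.543). The part of these cells in the ligand values was not tested.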

Additional observations from a re-analysis of the deposited data

How the results depend on the processing

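With 2 to 26 reads in each library, the depth limits Ccl3, Ccl4, Cxcl16 and Xcl1 most. The cKO values of Cxcl2, from 13 to 18 reads, are limited likewise. Cxcl2, Cxcl10, Ccl5, Ccl3 and Ccl20 had a negative log2 fold change under all 18 alternatives and Cxcl16 a positive one under the 16 in which it was tested; for the ligands whose groups do not overlap this adds no support. Of the 7 ligands, DESeq2 called 2 (Cxcl2, log2 fold change -1.71, and Cxcl10, -1.53) and limma on log2(FPKM + 1) called 1 (Cxcl2, -1.01, adjusted p = 0.0439). The other alternatives called 0, with 2 to 4 ligands at an unadjusted p under 0.05. The value of Xcl1 turned to 0.022 without both cKO1 and WT2, and ranged from -0.46 to 0.032 when single libraries were left out. Over all genes, 27 were called, against 179 with DESeq2, 43 with no filter, 48 with robust empirical Bayes, 71 without both cKO1 and WT2, 9 on log2(FPKM + 1) and 0 on log2(FPKM + 0.1). Leaving out 1 library gave 0 to 30 calls, 30 without WT2 and 0 without each of the others. The cause of these differences was not tested. With the replicate number as a block, 0 genes were called (811 at an unadjusted p under 0.05) and Cxcl2 had an adjusted p of 0.292. Deviations of log2 CPM from the group mean were correlated across genes between cKO and WT libraries. Same-numbered libraries gave -0.28, 0.06 and 0.26, and the other pairs -0.38 to 0.31. In a group of 3 the deviations depend on each other, so these values cannot decide whether the mice were paired. The sample titles do not state a pairing, so the main fit has no block.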
